A study of Danio rerio with 10 samples.

Results

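The nuclear-encoded genes of oxidative phosphorylation were followed in the brains of adult zebrafish. Every row of the gene count table was taken whose zebrafish gene name, ignoring case, begins with nduf (but not ndufaf), with uqcr, with sdha, sdhb, sdhc or sdhd, with cox4, cox5, cox6, cox7 or cox8, or with atp5, and this gave 97 of 32266 genes. They comprised 38 genes of complex I, 5 of complex II, 8 of complex III, 18 of complex IV and 18 of the ATP synthase. The name rule also took in 4 assembly factors of complex II (sdhaf1, SDHAF2, SDHAF3 and SDHAF4), 4 genes of the NDUFA4 family and 2 inhibitors of the ATP synthase (atp5if1a and atp5if1b). NDUFA4 was first described as a complex I protein and is counted as a complex IV subunit in mammals, so this family was kept apart.

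The study compared the brains of fish with a mutated ppp2r2c gene with wild-type (WT) brains, and then tested drugs in the mutant. The gene encodes a brain regulatory subunit of protein phosphatase 2A (PP2A). Of the drugs in these libraries, the study describes methylphenidate as a PP2A activator, while valproate appears only with its dose. All fish were of the Tübingen strain and 6 months old, and each library was made from 2 pooled brains. There were 2 libraries of WT fish without drug, 2 of ppp2r2c m/m fish without drug (called vehicle here), 3 of ppp2r2c m/m fish fed methylphenidate (MPH) at 1.08 mg/kg and 3 of ppp2r2c m/m fish fed valproate at 300 mg/kg. Food soaked in the drug solution was given for 3 days. The mutant was made by CRISPR-Cas9 in exon 9 of the gene. The samples are titled a4 mutant with the genotype ppp2r2c m/m, while the study writes m1/m1 for the line it sequenced and also has an m2/m2 line. Every mutant library has the same genotype label, and no WT fish received a drug. Because whole brains were homogenised, a change in the number of cells of a type and a change in RNA per cell cannot be told apart.

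Oxidative phosphorylation couples the oxidation of nutrients to the making of ATP at the inner mitochondrial membrane. Complex I and complex II pass electrons from NADH and succinate to ubiquinone, complex III hands them on to cytochrome c, and complex IV reduces oxygen, while complexes I, III and IV pump protons that drive the ATP synthase. Mitochondrial DNA encodes a small core of these subunits and the nucleus encodes the rest, complex II included. Neurons rely on the pathway for firing and for synaptic transmission.

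Nearly all of these genes were read in depth. Of the 97 genes, 94 had a mean of at least 1 CPM (counts-per-million, a count scaled to the size of its library), 93 had at least 10 counts in every library, and 0 had no count in any library. The exceptions were NDUFA12, ndufa4l2b and UQCRB. NDUFA12, a complex I accessory subunit, was between 0 and 0.09 CPM in the 10 libraries. The NDUFA4 relative ndufa4l2b lay between 0 and 0.18 CPM, and UQCRB, a complex III subunit, was at 0 in both WT libraries, which allows up to 3 counts in each, and between 0.14 and 1.15 CPM elsewhere. Zebrafish keep duplicated genes for several subunits, and 3 names stand for a pair of gene identifiers each. These are COX5B (ENSDARG00000015978 and ENSDARG00000068738), SDHD (ENSDARG00000030139 and ENSDARG00000055712) and COX6A1 (ENSDARG00000054588, beside cox6a1, ENSDARG00000022438). Reads that fit both copies of a near-identical pair would be lost, so the values of such pairs are less certain. No gene lengths were at hand, so levels are compared between libraries and never between genes.

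Library totals ranged from 19224942 to 25851076 counts (median 21647733.5). The marker genes of neurons found in the table (ELAVL3, ELAVL4 and GAD2) summed to between 1231 and 1572 CPM in all 10 libraries, and those of oligodendrocytes to between 6210 and 13980 CPM. Retina and lens genes summed to 90.1 CPM in WT replicate 2 and 132.0 CPM in valproate replicate 2, against 5.67 to 18.9 CPM in the other 8 libraries. Pituitary genes reached 64.7 CPM in MPH replicate 2 and 64.6 CPM in valproate replicate 1, against 1.32 to 7.91 CPM elsewhere. Blood genes were at 318 and 337 CPM in the vehicle libraries, at 134 and 320 CPM in WT and at 323 CPM in MPH replicate 3, while the other 5 libraries had 71.2 to 102 CPM. A frameshift can lower a transcript by nonsense-mediated decay, so the targeted gene was read in every library. PPP2R2C was at 50.3 and 54.6 CPM in WT and at 46.3 and 46.7 CPM in vehicle, so both vehicle libraries were below WT. It was at 49.1, 70.6 and 39.2 CPM with MPH and at 70.5, 56.1 and 59.6 CPM with valproate, and 4 of the 8 libraries labelled ppp2r2c m/m were thus above both WT libraries. Its paralog ppp2r2cb was at 26.4 and 28.5 CPM in WT, 18.3 and 17.7 CPM in vehicle, 20.3, 30.6 and 17.8 CPM with MPH and 28.6, 27.1 and 23.0 CPM with valproate. The level of the transcript was thus not below WT in every mutant library, and by itself it does not settle a genotype label. Its highest values were in MPH replicate 2 and valproate replicate 1, the libraries with the most pituitary RNA. Whether that RNA had a part in them was not tested. PPP2R2C was taken as the targeted gene by its name. The study itself reported lower ppp2r2c mRNA by RT-qPCR, and lower PP2A activity, in mutant brains. The mutation itself is not read by gene counts, and the groups are called by their labels throughout.

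The clearest difference among the libraries lay inside the MPH group. The 97 genes together took 1.67% and 1.62% of all counts in the WT libraries, 1.93% and 1.68% in vehicle, 2.55%, 1.73% and 1.68% in MPH, and 1.86%, 1.54% and 1.59% in valproate. The share was highest in the library numbered 1 of every group, and MPH replicate 1 stood above all the others. Its 95% Wilson interval was 2.55% to 2.56%, and counting error, the only error such intervals cover, was at most 0.0061 percentage points either way in any library.

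MPH replicate 1 was the highest of the 10 libraries for 75 of the 94 genes with at least 1 CPM, against 17.7% of the 17647 genes of the whole table that reach this level. Relative to the mean of the other MPH libraries, 90 of the 94 genes were higher in it, with a median difference of 0.69 on the log2 scale, while the median over all 17647 genes was 0.0039. The ATP synthase showed a median difference of 0.81, complex I of 0.71, complex III of 0.66, complex IV of 0.66 and complex II of 0.28, and the complex II assembly factors one of 0.04. The genes that stood out most were cox7a1 (1.46), the complex I iron-sulfur subunits NDUFS7 (1.27) and NDUFV2 (1.25), and NDUFA6 (1.26), a complex I accessory subunit. Those not higher in this library were sdhaf1 (-0.25), ndufa9b (-0.20), SDHD with identifier ENSDARG00000030139 (-0.07) and atp5meb (-0.02). At the low end, WT replicate 2 was the lowest of all libraries for 35 of the 94 genes, against 9.28% of all 17647 genes. Valproate replicate 2 was the lowest for 33, against 6.11% of all genes. These are the same 2 libraries that held the most retina and lens RNA, and whether that RNA had a part in the low values was not tested.

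**Figure D1:**
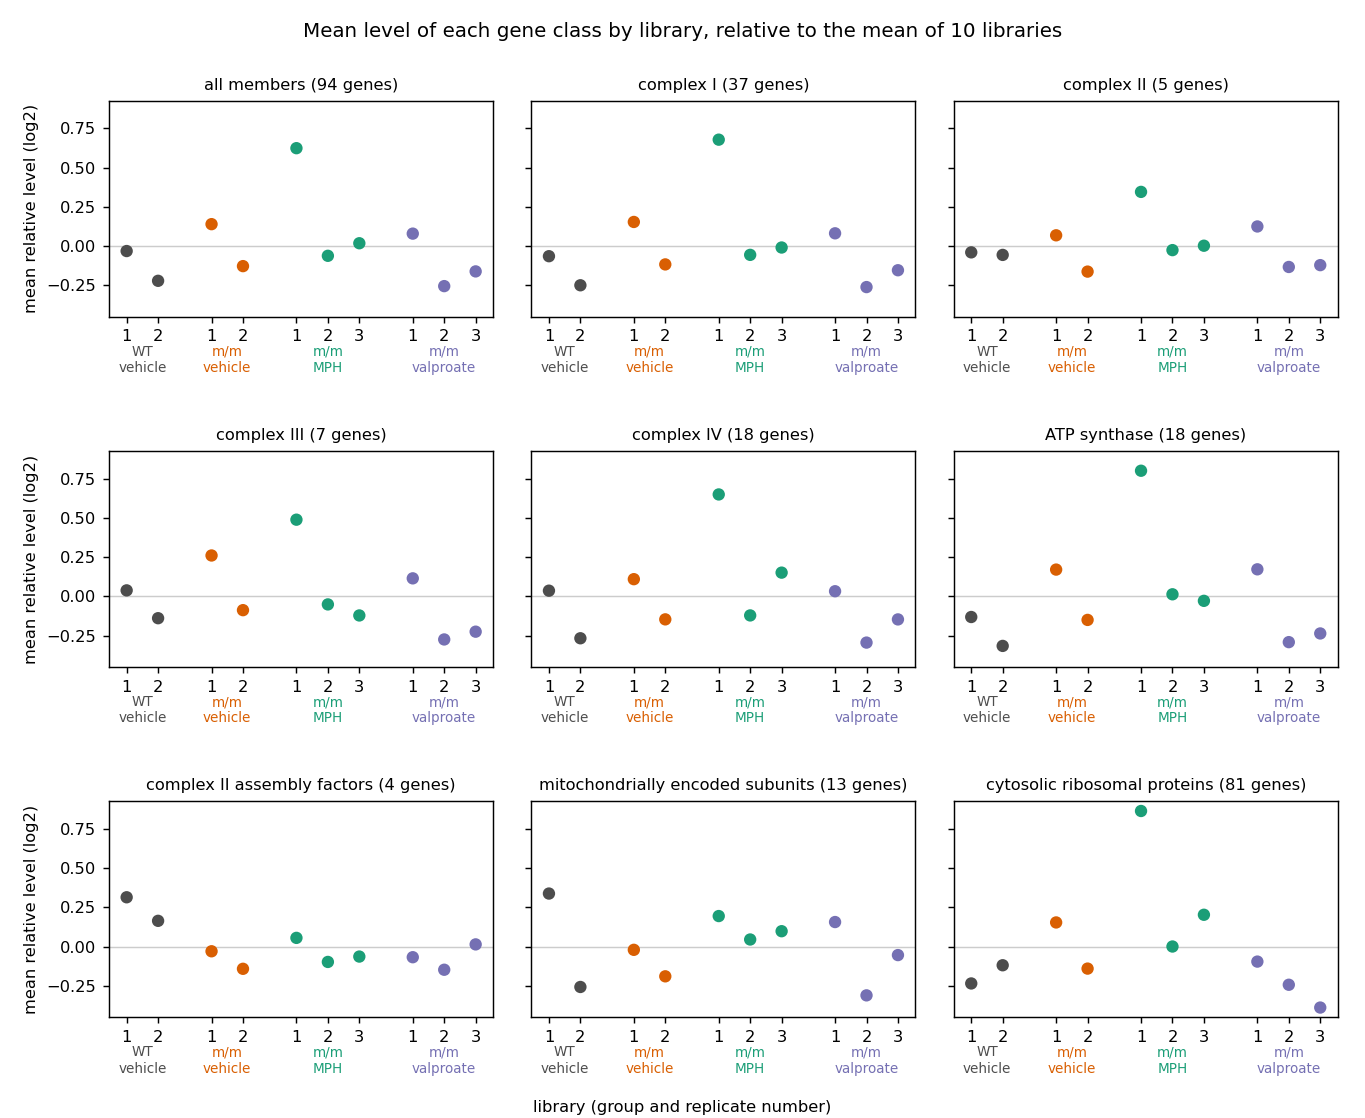
Mean level of each class of genes in each library, as log2(CPM + 0.5) minus the mean of the 10 libraries (m/m, ppp2r2c m/m). MPH replicate 1 lies at 0.62 for all 94 genes and at 0.86 for the cytosolic ribosomal protein genes, whereas the complex II assembly factors are highest in both WT libraries (0.31 and 0.16).

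**Figure D2:**
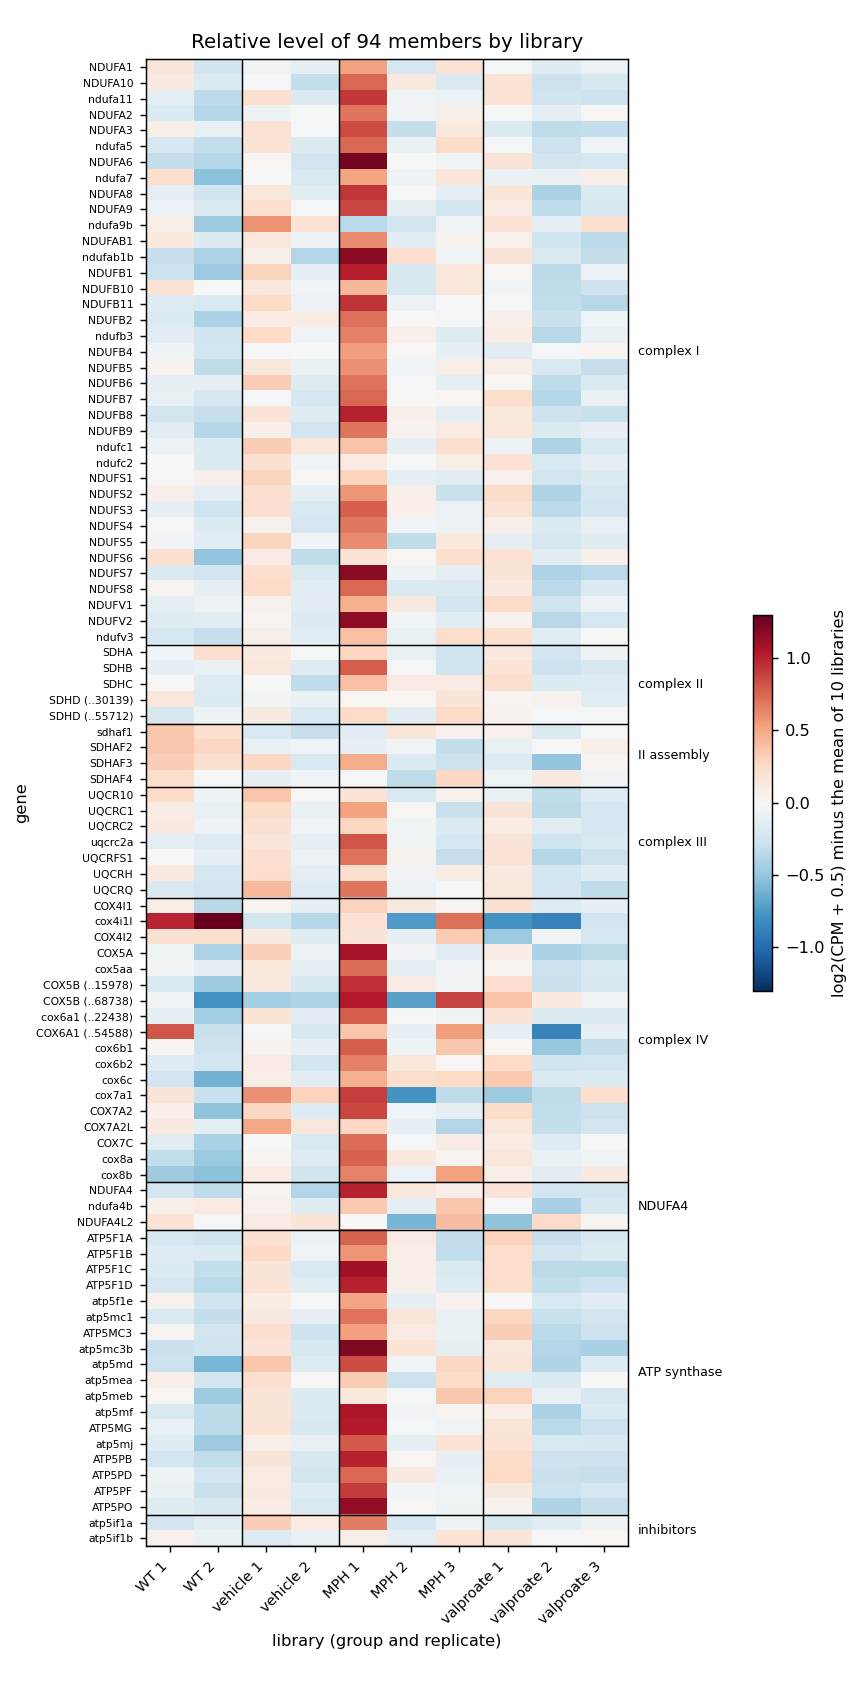
Each row is 1 of the 94 genes with at least 1 CPM and each column 1 library, coloured by log2(CPM + 0.5) minus the gene's mean over the 10 libraries, from blue (low) to red (high). The column of MPH replicate 1 is red for nearly every gene, and cox4i1l is the row in which the WT libraries stand out.

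Other gene groups shared the position of MPH replicate 1 to different degrees. The genes of the cytosolic ribosome, which are not part of the pathway, summed to 67270 CPM in this library and to between 26010 and 39490 CPM in the other 9. The median difference from the other MPH libraries was 0.83 for 81 cytosolic ribosomal protein genes, 0.72 for 8 genes of cytochrome c and the mitochondrial carriers, 0.46 for 9 glycolytic genes and 0.30 for 73 mitochondrial ribosomal protein genes. It was 0.27 for 14 genes of the citric acid cycle, 0.23 for 42 assembly factors of the respiratory complexes and 0.22 for the 13 subunits encoded by mitochondrial DNA. The 15 regulators of mitochondrial biogenesis showed a median of 0.03. This library was also the deepest (25851076 counts) and had the lowest TMM scaling factor (0.87). The part of these features in the level of the oxidative phosphorylation genes was not tested.

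To ask whether the ppp2r2c mutation altered the pathway, ppp2r2c m/m brains without drug (vehicle) were compared with WT brains without drug. No gene of the pathway passed the threshold, although most fitted values were above 0: 78 of the 94 genes tested were higher in the mutant and 16 lower. The median log2 fold change was 0.18, beside -0.01 over all 19695 genes tested, and the median standard error (SE) of a single gene was 0.16. By edgeR's quasi-likelihood test at a Benjamini-Hochberg adjusted p of 0.05, 0 of 94 genes were called, while 38 genes (0.193%) were called over the whole table. At an unadjusted p of 0.05, 11 of the 94 genes passed, and so did 10.0% of all genes. They were 8 genes on the upper side (4.8% of all genes) and 3 on the lower side (5.22%). DESeq2 called 1 of the 94 genes, cox4i1l, and 1.29% of all genes.

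All 18 ATP synthase genes had a positive fold change in the mutant (median 0.26, range 0.10 to 0.56). The same was true of the 7 complex III genes tested (median 0.11) and of 34 of the 37 complex I genes (median 0.20). Complex IV was mixed, with 14 of 18 genes higher and a median of 0.23. Complex II lay at a median of -0.05, and the 4 complex II assembly factors were all on the lower side (median -0.29). Groups of 2 against 2 libraries did not overlap for 31 of the 94 genes in the upward direction and for 7 in the downward direction, against 20.5% and 22.0% of all genes. The positive median depended on vehicle replicate 1: without it the median was 0.013, with 51 genes higher and 43 lower. Without WT replicate 2 the median was 0.09. Complex III turned to -0.08 (2 of 7 higher) without vehicle replicate 1 and to -0.02 (3 of 7) without WT replicate 2. Without vehicle replicate 1, complex I was at 0.03 (20 of 37 higher), complex IV at 0.05 (12 of 18) and the ATP synthase at 0.07 (15 of 18). Complex II had a positive median with any library other than vehicle replicate 1 left out. The median of the 4 complex II assembly factors was between -0.42 and -0.24 with any of the 4 libraries left out, and all 4 factors stayed on the lower side except without vehicle replicate 2, where 1 was higher.

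**Figure D3:**
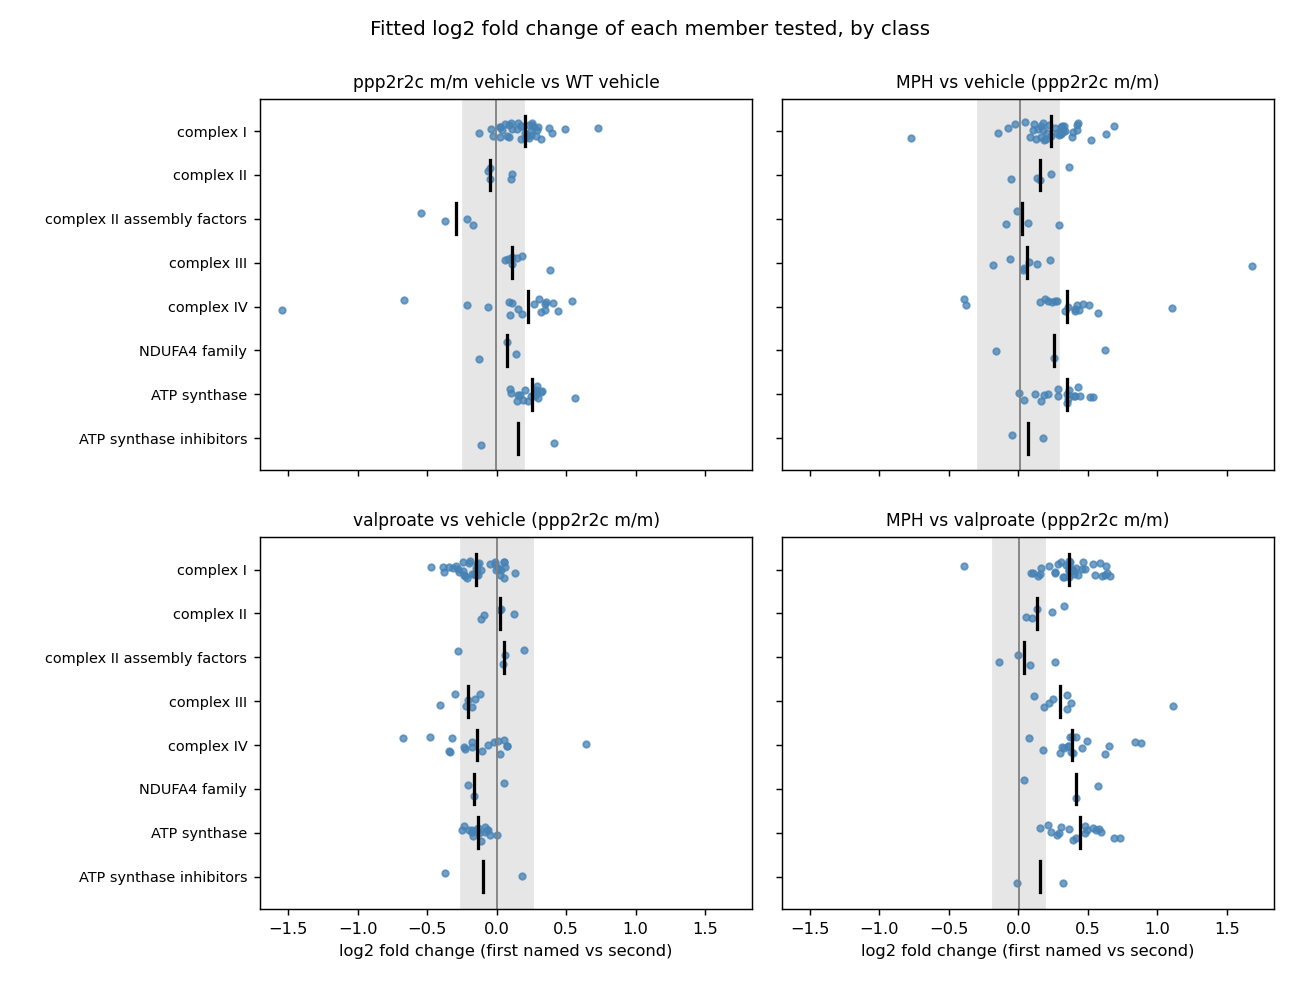
Fitted log2 fold change of every gene tested (points), by class, with the class median (black bar), in the 4 comparisons. The grey line and band mark the median and the middle 50% of all genes tested. In the genotype panel cox4i1l lies alone at -1.54, and in the panel of MPH against valproate 91 of 95 genes lie above 0.

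The gene with the smallest p-value was cox4i1l, named as a paralog of cox4i1, which encodes the regulatory and largest nuclear-encoded subunit of cytochrome c oxidase. It was at 16.2 and 20.6 CPM in WT and at 6.59 and 5.96 CPM in vehicle. MPH-treated mutants had 9.02, 4.50 and 13.3 CPM and valproate-treated mutants 4.36, 4.09 and 6.55 CPM. Every library labelled ppp2r2c m/m, with or without a drug, was therefore below both WT libraries. The log2 fold change of vehicle against WT was -1.54 (SE 0.22), with an edgeR adjusted p of 0.0505, just outside the threshold. Under the alternatives tried the adjusted p ranged from 6.89e-05 with DESeq2 to 0.491 with all 10 libraries in a single edgeR fit, and the log2 fold change from -1.71 to -1.36.

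Of the other genes for this subunit, COX4I1 did not share this pattern and COX4I2 shared it in part. COX4I1 was at 436 and 322 CPM in WT and at 424 and 382 CPM in vehicle, which overlap (log2 fold change 0.09, SE 0.17, edgeR adjusted p = 0.886). In the MPH group it was at 508, 449 and 424 CPM, and in the valproate group at 474, 367 and 385 CPM. COX4I2, the isoform induced by low oxygen in mammals, had 113 CPM in both WT libraries and 106 and 87.8 CPM in vehicle (log2 fold change -0.21, SE 0.14, edgeR adjusted p = 0.666). Its vehicle libraries were thus below both WT libraries. Both drug groups overlapped vehicle for COX4I2, with 110, 91.1 and 124 CPM under MPH and 70.4, 94.9 and 84.3 CPM under valproate. MPH replicate 3, at 124 CPM, was the only library labelled ppp2r2c m/m that was not below both WT libraries for this gene.

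The assembly factors of complex II help to load succinate dehydrogenase with its cofactors. SDHAF2, which is needed for the attachment of flavin to the SDHA subunit, was at 56.0 and 52.7 CPM in WT and at 41.0 and 42.7 CPM in vehicle. It was at 40.7, 42.4 and 35.2 CPM with MPH and at 40.8, 43.5 and 46.4 CPM with valproate. As for cox4i1l, all 8 libraries labelled ppp2r2c m/m were below both WT libraries. The log2 fold change of vehicle against WT was -0.37 (SE 0.13, edgeR adjusted p = 0.391). The factor that helps to mature the iron-sulfur subunit SDHB, sdhaf1, had 12.4 and 11.2 CPM in WT, 8.35 and 7.73 CPM in vehicle, 8.67, 10.8 and 10.1 CPM with MPH and 9.99, 8.38 and 9.55 CPM with valproate. Again the 8 libraries with the mutant label lay below WT (vehicle against WT log2 fold change -0.55, SE 0.21, edgeR adjusted p = 0.441).

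SDHAF3, another factor for SDHB, overlapped between WT (16.2 and 15.0 CPM) and vehicle (15.6 and 11.1 CPM). SDHAF4, which chaperones SDHA, was at 24.9 and 20.8 CPM in WT and at 19.7 and 20.7 CPM in vehicle, with the groups barely apart. The subunits that these factors serve showed no comparable shift. SDHA was at 672 and 801 CPM in WT and at 743 and 673 CPM in vehicle, and SDHB at 297 and 302 CPM in WT and at 356 and 285 CPM in vehicle, so that both overlapped.

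Over the whole set, 3 of the 94 genes (cox4i1l, SDHAF2 and sdhaf1) were lower in all 8 libraries labelled ppp2r2c m/m than in both WT libraries, and 5.39% of all genes with at least 1 CPM were. In the upward direction there were 6 genes, against 4.71% of all genes. They were the complex IV genes cox8a, cox8b and cox6c and the complex I genes NDUFA2, NDUFA6 and ndufv3. These counts were chosen after the values were seen, and neither share is far from that of all genes. Both WT libraries were made from fish without drug, so in this count the drugs and the genotype are mixed. The labels of the 4 libraries with high PPP2R2C are taken as given.

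**Figure D4:**
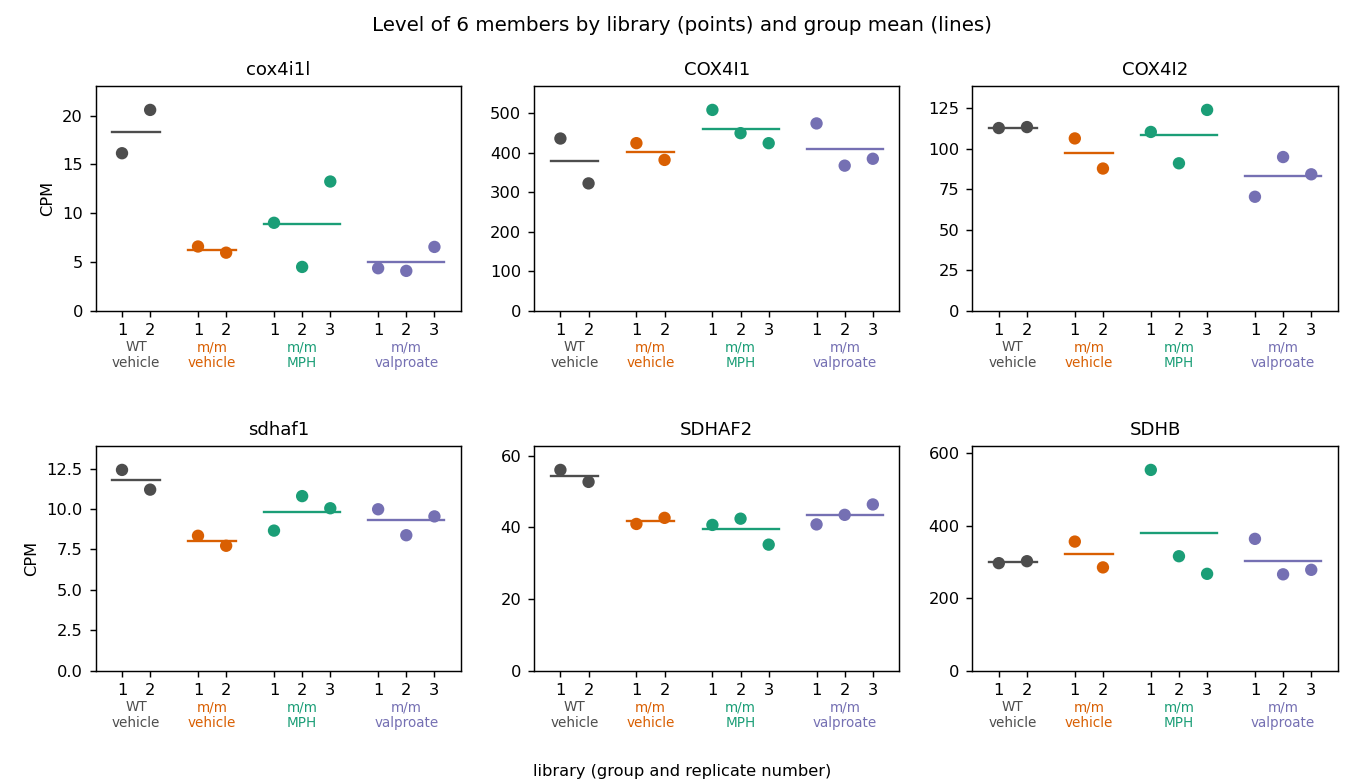
Level in CPM of the 3 genes for complex IV subunit 4 (top) and of sdhaf1, SDHAF2 and SDHB (bottom) in each library (m/m, ppp2r2c m/m), with lines at the group means and every axis starting at 0. The 8 libraries labelled ppp2r2c m/m lie below both WT libraries for cox4i1l (4.09 to 13.3 against 16.2 and 20.6 CPM), sdhaf1 and SDHAF2, but not for COX4I1 or SDHB. For COX4I2 all of them except MPH replicate 3 do.

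Among the genes with the highest fitted values in the mutant was atp5md, a small membrane subunit of the ATP synthase, which was at 56.9 and 45.5 CPM in WT and at 89.1 and 61.3 CPM in vehicle. The groups did not overlap, with a log2 fold change of 0.56 (SE 0.20, edgeR adjusted p = 0.415). The complex I accessory subunit NDUFB1 rested at 34.3 and 29.9 CPM in WT and at 51.1 and 38.5 CPM in vehicle (0.49, SE 0.17, edgeR adjusted p = 0.407). For atp5if1a, an inhibitor of ATP hydrolysis by the ATP synthase, the values were 58.8 and 63.5 CPM in WT and 87.0 and 75.3 CPM in vehicle (0.42, SE 0.14, edgeR adjusted p = 0.374). In these genes both vehicle libraries were above both WT libraries, replicate 1 further than replicate 2, and no gene among them passed the adjusted threshold. The low-count genes ndufa9b (1.78 and 1.06 CPM in WT, 2.72 and 1.96 CPM in vehicle), cox7a1 (6.51 and 4.58 CPM in WT, 8.92 and 7.18 CPM in vehicle) and COX6A1 (2.37 and 0.84 CPM in WT, 1.1 and 0.91 CPM in vehicle) completed the extremes. Their log2 fold changes were 0.73 (SE 0.50), 0.54 (SE 0.28) and -0.66 (SE 0.67), and that of COX6A1 turned to 0.27 without WT replicate 1.

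The fitted values of the mitochondrially encoded subunits turned with the WT library used. Of the 13 genes on mitochondrial DNA, 2 were higher in the mutant and 11 lower (median -0.19), and 0 passed the test. Without WT replicate 1 the median was 0.17 with 12 of 13 higher, and without WT replicate 2 it was -0.41 with 0 of 13 higher. Their summed level was 76850 and 46570 CPM in WT and 60550 and 51090 CPM in vehicle, which overlap. The other lists gave 0 called genes too. For assembly factors the median was -0.12 (17 of 42 higher), for the citric acid cycle 0.10 (9 of 14), for glycolysis 0.10 (7 of 9), for cytochrome c and carriers 0.18 (5 of 8), for regulators of biogenesis 0.02 (8 of 15) and for mitochondrial ribosomal proteins 0.03 (46 of 73). The cytosolic ribosomal proteins were at 0.20 (77 of 81 higher), but at 0.017 (45 of 81 higher) without vehicle replicate 1 and at 0.38 without vehicle replicate 2. Without vehicle replicate 1 the other lists were at -0.17 for assembly factors, 0.015 for the citric acid cycle, -0.038 for glycolysis, 0.0046 for cytochrome c and carriers, 0.056 for regulators of biogenesis and -0.059 for mitochondrial ribosomal proteins. Without WT replicate 1 the assembly factors were at 0.0065 and the regulators at -0.0077. Without WT replicate 2 the mitochondrial ribosomal proteins were at -0.039, and without vehicle replicate 2 the regulators were at -0.058.

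Of the cell type markers 0 were called in this comparison, and their fitted values lay as follows. Radial glia and astroglia markers were higher in 3 of 3 genes (median 0.44), neuron markers in 3 of 3 (0.19), blood markers in 4 of 4 (0.40), microglia markers in 5 of 7 (0.38), oligodendrocyte markers in 4 of 7 (0.13) and pituitary markers in 3 of 3 (1.51). Skeletal muscle markers were lower in 7 of 10 genes (median -0.96), and retina and lens markers, which differed strongly within WT, in 6 of 8 (-2.18). Without WT replicate 2 the microglia markers were at -0.085 and the retina and lens markers at -0.013. The part of these cells in the values of the oxidative phosphorylation genes was not tested.

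The effect of MPH was read against vehicle, the ppp2r2c m/m brains without drug. No gene was called (0 of 95 tested by edgeR, where 43 of 19907 genes, or 0.216%, were called in all), and 0 of the 95 genes reached even an unadjusted p of 0.05, which 11.7% of all genes did. DESeq2 called 0 of the 93 genes for which it gave an adjusted p and 2.95% of all genes. The fitted values were nevertheless mostly positive, with 82 of 95 genes higher, 13 lower and a median of 0.24 beside 0.01 over all genes. The median SE of a gene was 0.26. Groups did not overlap for 8 genes in the upward direction, against 15.7% of all genes, and for 1 gene, ndufa9b, in the downward direction, against 15.9%.

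The positive median rested on MPH replicate 1. Without this library the median was -0.026, with 41 of 94 genes higher and 53 lower. The ATP synthase went from a median of 0.35 with 18 of 18 genes higher to -0.004 with 9 of 18, complex I from 0.23 to -0.04 and complex III from 0.06 to -0.19, with 0 of 7 genes higher. Complex IV had 12 of 18 genes on the upper side, with a median of 0.15 in place of 0.35. The cytosolic ribosomal proteins moved likewise, from 0.41 to 0.08. The median of the 13 mitochondrially encoded subunits was 0.18 with all libraries (12 of 13 higher) and 0.22 without this one (11 of 13).

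**Figure D5:**
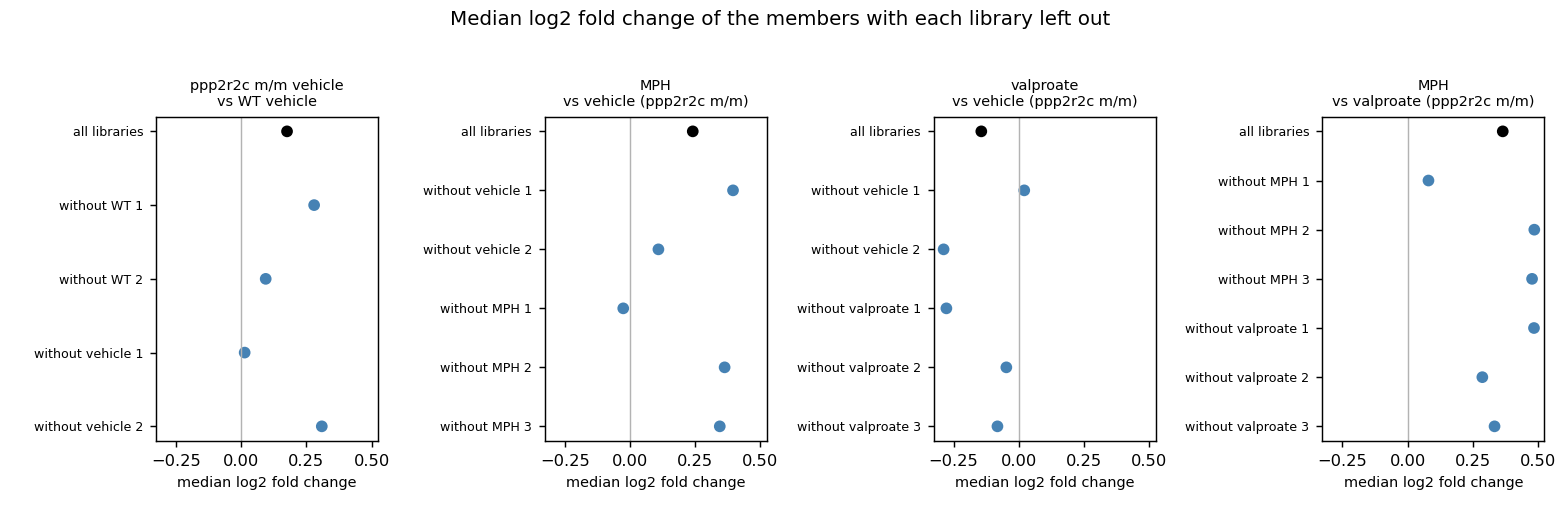
Median log2 fold change of the genes tested in each comparison with all libraries (black) and with each library left out in turn (blue). The median of MPH against vehicle falls from 0.24 to -0.026 without MPH replicate 1, and that of valproate against vehicle moves from -0.14 to 0.021 without vehicle replicate 1.

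The highest fitted value among genes with at least 1 CPM belonged to the weakly expressed COX5B copy ENSDARG00000068738. It was at 10.6, 2.82 and 9.45 CPM with MPH and at 3.47 and 3.59 CPM in vehicle, with a log2 fold change of 1.1 (SE 0.53, edgeR adjusted p = 0.468). The MPH libraries thus lay on both sides of vehicle. The main COX5B copy, ENSDARG00000015978, was at 1228, 684 and 618 CPM with MPH and at 695 and 548 CPM in vehicle, and here MPH replicate 1 alone stood above vehicle (0.43, SE 0.30). NDUFA6 was at 254, 107 and 104 CPM against 109 and 90.2 CPM (0.63, SE 0.37, edgeR adjusted p = 0.566). The mitochondrial acyl carrier protein gene ndufab1b was at 191, 98.4 and 82.5 CPM against 88.9 and 64.8 CPM (0.68, SE 0.34, edgeR adjusted p = 0.489). In both of them the other MPH libraries fell within or near the vehicle range.

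NDUFA4 had the smallest p-value of the set in this comparison. It was at 415, 229 and 216 CPM with MPH and at 212 and 159 CPM in vehicle, so all 3 MPH libraries were above both vehicle libraries (0.62, SE 0.30, edgeR adjusted p = 0.467). Its paralog ndufa4b was at 609, 444 and 611 CPM with MPH and at 499 and 430 CPM in vehicle, which overlap. The complex II membrane anchor SDHC was at 168, 139 and 139 CPM against 128 and 102 CPM, with no overlap (0.37, SE 0.18, edgeR adjusted p = 0.481). The complex IV gene cox6c, at 283, 241 and 246 CPM against 218 and 188 CPM, did not overlap either (0.34, SE 0.17, edgeR adjusted p = 0.495). In these 3 genes the MPH libraries other than replicate 1 were above both vehicle libraries as well.

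On the lower side, ndufa9b was at 1.19, 1.32 and 1.58 CPM with MPH and at 2.72 and 1.96 CPM in vehicle (-0.77, SE 0.49, edgeR adjusted p = 0.596). COX7A2L, whose product takes part in joining complexes III and IV in mammals, was at 54.9, 42.1 and 34.7 CPM against 64.8 and 50.3 CPM (-0.39, SE 0.22, edgeR adjusted p = 0.544). For cox7a1, the isoform of heart and skeletal muscle in mammals, values were 11.1, 3.13 and 4.45 CPM against 8.92 and 7.18 CPM (-0.38, SE 0.50, edgeR adjusted p = 0.821). MPH replicate 1 was again the highest of its group for COX7A2L and cox7a1. UQCRB had a larger fitted value (1.68, SE 0.90, edgeR adjusted p = 0.521) at 1.15, 0.84 and 0.43 CPM against 0.18 and 0.32 CPM, too few counts for the size to be read.

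Of the related lists, 0 genes were called with MPH. Medians were 0.13 for assembly factors (26 of 42 higher), 0.02 for the citric acid cycle (9 of 14), 0.15 for glycolysis (7 of 9), 0.16 for cytochrome c and carriers (5 of 8), 0.11 for regulators of biogenesis (11 of 15) and 0.12 for mitochondrial ribosomal proteins (47 of 73). Without MPH replicate 1 the medians of 4 of these 6 lists turned to the lower side, with -0.10 for the citric acid cycle (4 of 14 higher), -0.0055 for glycolysis (4 of 9), -0.039 for cytochrome c and carriers (2 of 8) and -0.031 for mitochondrial ribosomal proteins (32 of 73). The assembly factors were at 0.063 (27 of 42) and the regulators at 0.18 (12 of 15). Blood markers were lower in 4 of 4 genes (median -1.01), oligodendrocyte markers in 7 of 7 (median -0.36) and radial glia and astroglia markers in 3 of 3 (-0.17). Higher were 6 of 9 skeletal muscle markers (median 0.88), 6 of 8 of retina and lens (0.70), 4 of 5 of the pituitary (2.11) and 4 of 7 of microglia (0.15). The pituitary markers were at -1.56 without MPH replicate 2, and the microglia markers at -0.14 without MPH replicate 1. The markers of neurons had a median of -0.02. The part of these cells in the values of the oxidative phosphorylation genes was not tested.

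Valproate was compared with the same vehicle libraries, so any vehicle library that stands high enters this comparison and that of MPH alike. Again 0 genes were called by edgeR among 94 tested, where 26 of 19850 genes (0.131%) were called in all, and DESeq2 called 0 of 94, where it called 5.65% of all genes. Here the fitted values were mostly negative, with 70 of 94 genes lower, 24 higher and a median of -0.14 (all genes 0.00, median SE 0.17). At an unadjusted p of 0.05, 7 of the 94 genes passed, against 16.9% of all genes, and 6 of these were lower (7.82% of all genes) and 1 was higher (9.08%). Groups did not overlap for 10 genes in the downward direction and 3 in the upward direction, against 17.4% and 19.3% of all genes.

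All 7 complex III genes tested had a negative fold change with valproate (median -0.20), as did 17 of 18 ATP synthase genes (median -0.14), 28 of 37 complex I genes (-0.14) and 12 of 18 complex IV genes (-0.14). The medians of complex II (0.02, 3 of 5 genes higher) and its assembly factors (0.06) were on the upper side. That of complex II was -0.13 (1 of 5 higher) without vehicle replicate 2 and -0.027 (0 of 5) without valproate replicate 1. The direction of the whole set turned without vehicle replicate 1, where the median was 0.021 with 57 of 95 genes higher. Complex III then had 4 of 8 genes higher and the ATP synthase 14 of 18. Without valproate replicate 2, the library with the retina and lens RNA, the median was -0.05. The cytosolic ribosomal proteins were also on the lower side (median -0.27, 2 of 82 higher), with a median of -0.11 and 12 of 82 higher without vehicle replicate 1.

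The genes with the smallest p-values were of complex I and the ATP synthase inhibitors. The complex I accessory subunit ndufc1 was at 34.9, 27.6 and 31.6 CPM with valproate and at 45.6 and 40.6 CPM in vehicle (-0.47, SE 0.15, edgeR adjusted p = 0.185). NDUFA3, also of complex I, was at 77.7, 70.0 and 70.7 CPM against 101 and 87.3 CPM (-0.38, SE 0.12, edgeR adjusted p = 0.185). The inhibitor gene atp5if1a was at 60.4, 62.7 and 66.7 CPM against 87.0 and 75.3 CPM (-0.37, SE 0.12, edgeR adjusted p = 0.185). In these genes all 3 valproate libraries were below both vehicle libraries. For NDUFA3 and atp5if1a the gap between the nearest libraries was smaller than the spread between the vehicle libraries. The valproate values of atp5if1a came near the WT values of 58.8 and 63.5 CPM, and the MPH libraries spread from 59.5 to 111 CPM.

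UQCR10, a small subunit of complex III, was at 80.9, 68.3 and 76.5 CPM with valproate and at 111 and 86.8 CPM in vehicle (-0.40, SE 0.14, edgeR adjusted p = 0.228). COX7A2L was at 50.2, 36.4 and 38.4 CPM against 64.8 and 50.3 CPM, with the closest libraries touching (-0.48, SE 0.18, edgeR adjusted p = 0.255). The lowest fitted value was that of cox7a1, at 4.02, 4.44 and 6.78 CPM against 8.92 and 7.18 CPM (-0.68, SE 0.29, edgeR adjusted p = 0.295). The groups did not overlap for these genes, and the gap between their nearest libraries was smaller than the spread between the vehicle libraries.

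Upward values were few. The weak COX5B copy ENSDARG00000068738 was at 6.50, 5.42 and 4.75 CPM with valproate and at 3.47 and 3.59 CPM in vehicle (0.64, SE 0.26, edgeR adjusted p = 0.279). For sdhaf1 the values given above yielded 0.20 (SE 0.20, edgeR adjusted p = 0.666). The other inhibitor of the ATP synthase, atp5if1b, was at 123, 109 and 112 CPM against 97.9 and 103 CPM (0.18, SE 0.11, edgeR adjusted p = 0.464). The inhibitor paralogs thus had fold changes of opposite sign against vehicle, neither of which passed the adjusted threshold. They were of opposite sign in vehicle against WT too, where atp5if1b was at 114 and 103 CPM in WT (-0.11, SE 0.13). Both comparisons use the same vehicle libraries, so these signs are not independent of each other.

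Among the lists examined with valproate, only blood markers passed the test. They were hbaa1, an alpha globin (log2 fold change -2.02, SE 0.17, edgeR adjusted p = 0.0148), and alas2, the erythroid enzyme of haem synthesis (-1.65, SE 0.15, edgeR adjusted p = 0.0173), which fell. Medians of the other lists were -0.03 for assembly factors (18 of 42 higher), -0.07 for the citric acid cycle (5 of 14), -0.10 for glycolysis (4 of 9), -0.12 for cytochrome c and carriers (2 of 8), 0.13 for regulators of biogenesis (12 of 15), -0.11 for mitochondrial ribosomal proteins (16 of 73) and -0.03 for the mitochondrially encoded subunits (6 of 13). Without vehicle replicate 1 the medians were 0.012 for assembly factors, -0.029 for the citric acid cycle, 0.18 for glycolysis, 0.022 for cytochrome c and carriers, 0.16 for regulators, 0.014 for mitochondrial ribosomal proteins and 0.13 for the mitochondrially encoded subunits, so 5 of these 7 lists changed sign.

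Blood markers were lower with valproate in 4 of 4 genes (median -1.31), oligodendrocyte markers in 7 of 7 (-0.64), radial glia and astroglia markers in 3 of 3 (-0.22) and neuron markers in 2 of 3 (-0.11). Skeletal muscle markers were higher in 10 of 11 genes (median 0.92), retina and lens markers in 7 of 8 (1.94), pituitary markers in 3 of 4 (2.14) and microglia markers in 4 of 7 (0.0013). Without valproate replicate 2 the retina and lens markers were at -0.47, and without valproate replicate 1 the pituitary markers were at -1.07. The part of these cells in the values of the oxidative phosphorylation genes was not tested.

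The drugs were finally set against each other, 3 libraries against 3, although their doses differ and each was given at a single dose. No gene was called among the 95 genes tested, and none (0.0%) among all 19387 genes. At an unadjusted p of 0.05, 2 of the 95 genes passed, against 4.06% of all genes, and DESeq2 called 0 of 95 and 0.19% of all. The direction was the most uniform of the comparisons, with 91 of 95 genes higher with MPH than with valproate and a median of 0.37 (all genes 0.00, median SE 0.23). All 18 genes of the ATP synthase (median 0.44), all 18 of complex IV (0.38), all 8 of complex III (0.30) and all 5 of complex II (0.13) were on the upper side.

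In spite of this, 0 of the 95 genes had all MPH libraries above all valproate libraries, against 4.46% of all genes, and 0 had all of them below (4.68%). Without MPH replicate 1 the median was 0.08, with 74 genes higher and 21 lower. The genes at an unadjusted p of 0.05 were cox6b1 and COX4I2, both of complex IV. The cox6b1 gene was at 186, 102 and 137 CPM with MPH and at 109, 76.4 and 86.4 CPM with valproate (0.65, SE 0.23, edgeR adjusted p = 0.997), and for COX4I2 the values given above yielded 0.39 (SE 0.17, edgeR adjusted p = 0.997). The groups overlapped by a single library in each.

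The genes with the highest and lowest fitted values were of several complexes. COX6A1 was at 1.59, 1.01 and 1.88 CPM with MPH and at 1.02, 0.39 and 1.01 CPM with valproate (0.89, SE 0.55). For cox4i1l, with the values above, the log2 fold change was 0.84 (SE 0.40), and 0.43 without MPH replicate 3. The subunit c gene atp5mc3b was at 1253, 618 and 498 CPM with MPH and at 603, 419 and 407 CPM with valproate (0.73, SE 0.33). On the lower side stood ndufa9b (-0.39, SE 0.41), SDHAF2 (-0.14, SE 0.14) and atp5if1b (-0.01, SE 0.14), and all 6 had an edgeR adjusted p of 0.997 or above. The cytosolic ribosomal proteins had a larger difference (median 0.68, 81 of 81 higher, 73 at an unadjusted p of 0.05 and 0 called), and 81 of 81 were higher without MPH replicate 1 too (median 0.35). Of the 13 mitochondrially encoded subunits 11 were higher (median 0.20), and of 42 assembly factors 34 (median 0.17). For 14 genes of the citric acid cycle the median was 0.12, for 9 of glycolysis 0.23, for 8 of cytochrome c and carriers 0.23, for 15 regulators of biogenesis 0.04 and for 73 mitochondrial ribosomal proteins 0.18. Without MPH replicate 1 these were at -0.041 for the citric acid cycle, 0.014 for glycolysis, -0.024 for cytochrome c and carriers (3 of 8 higher), 0.041 for regulators and 0.069 for mitochondrial ribosomal proteins, with 0.087 for assembly factors and 0.16 for the mitochondrially encoded subunits. Retina and lens markers were lower with MPH in 6 of 8 genes (median -0.86) and skeletal muscle markers in 8 of 11 (-0.53). The other markers had medians of 0.31 (blood), 0.21 (oligodendrocytes), 0.16 (pituitary), 0.13 (radial glia and astroglia), 0.13 (microglia) and -0.08 (neurons). Without valproate replicate 2 the retina and lens markers were at 1.58 (7 of 8 higher) and those of radial glia and astroglia at -0.042. The latter were at -0.097 without valproate replicate 3. Pituitary markers were at -2.67 without MPH replicate 2, blood markers at -0.33 without MPH replicate 3 and microglia markers at -0.099 without MPH replicate 1. The part of these cells was not tested.

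Paralogs of the same subunit were read side by side. The subunit c genes, which form the rotor ring of the ATP synthase, had their highest value in MPH replicate 1. ATP5MC3 was at 96.9 and 79.5 CPM in WT, 110 and 78.0 CPM in vehicle, 137, 102 and 88.4 CPM with MPH and 118, 73.6 and 78.2 CPM with valproate. For atp5mc1 the values were 311 and 288, 387 and 331, 582, 397 and 333, and 432, 292 and 301 CPM in the same order of groups, and atp5mc3b was at 445 and 455 CPM in WT and at 612 and 471 CPM in vehicle, with the drug values given above. The first library of each group was also high in vehicle and valproate for these 3 genes.

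The complex IV genes cox8a and cox8b, for the smallest subunit, differed in MPH replicate 3. In WT cox8a was at 246 and 220 CPM, in vehicle at 315 and 274 CPM, with MPH at 522, 338 and 316 CPM and with valproate at 341, 289 and 295 CPM. For cox8b the values were 199 and 190 CPM in WT, 296 and 230 CPM in vehicle, 431, 261 and 395 CPM with MPH and 290, 249 and 299 CPM with valproate. Both genes were lowest in the WT libraries, and MPH replicate 3 was high for cox8b only.

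The cox6b1 gene was at 110 and 89.3 CPM in WT and at 111 and 99.9 CPM in vehicle, and cox6b2, which is the testis isoform in mammals, at 203 and 192 CPM and at 247 and 192 CPM. Under MPH cox6b2 was at 361, 253 and 232 CPM, under valproate at 273, 190 and 192 CPM. WT and each drug group overlapped vehicle for both genes.

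The main cox6a1 gene was at 276 and 221 CPM in WT, 343 and 275 CPM in vehicle, 520, 304 and 292 CPM with MPH and 338, 265 and 265 CPM with valproate. COX7A2 followed the same order, at 124 and 82.7, 143 and 105, 218, 114 and 110, and 140, 95.3 and 97.7 CPM. Like most of the set, these genes had their highest value in MPH replicate 1 and a higher first than second library in vehicle. COX7A2L, with 49.2 and 41.6 CPM in WT, was highest in vehicle replicate 1 and lowest in MPH replicate 3.

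The ATP synthase subunit e genes split. In WT atp5mea was at 64.1 and 51.3 CPM, in vehicle at 70.6 and 60.5 CPM, with MPH at 76.2, 50.0 and 71.9 CPM and with valproate at 54.6, 53.3 and 60.7 CPM. The atp5meb gene was at 65.1 and 46.5, 71.7 and 56.4, 70.5, 62.7 and 81.8, and 78.9, 60.0 and 54.9 CPM. Its highest value was in MPH replicate 3, and neither gene showed groups apart from each other.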

How the data were processed

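Adult zebrafish brain RNA was sequenced in 10 libraries. Per the labels and the study's methods, the authors prepared libraries with the NEBNext Ultra RNA kit, filtered and trimmed paired reads, and counted reads per gene with STAR 2.6.1d on zebrafish zv10. The annotation release and the strand setting are not given in the sources used here. The deposited values are raw counts per gene, and every column was matched to a sample by its labels. Gene names came from a table that named 26433 of the 32266 identifiers.

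Counts were tested with edgeR 4.0.16 (R 4.3.3) after filterByExpr (minimum count 10, minimum total 15) and TMM scaling, by the quasi-likelihood test with Benjamini-Hochberg adjustment over all genes tested. A fit held only the libraries of the 2 groups compared, and the threshold was an adjusted p of 0.05. The study used DESeq2, and DESeq2 1.42.0 was run as an alternative. The procedure was tested on simulated data, with 200 genes changed by more than the median fold changes of this set. That test does not cover changes as small as these medians. CPM values use TMM scaling over the 10 libraries, and relative levels are log2(CPM + 0.5) for genes with a mean of at least 1 CPM. Fold changes are log2 throughout. The SE of a gene is its absolute log2 fold change divided by the square root of the F statistic of the quasi-likelihood test. It is thus derived from that test, which also draws on the spread of other genes. Replicates are separate pools of brains by their labels, but whether they came from separate tanks or days is not given, so p-values measure only the spread between these libraries.

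The genes described were those with an adjusted p under 0.05, the 3 highest and 3 lowest fold changes of each comparison among genes with at least 1 CPM, and paralog families, with others named for their library pattern after the values were seen. A further part of the rule, the gene with the most counts per length in each complex, was not applied because no gene lengths were at hand. The genes and all lists were chosen with earlier results of these data known. Many names written for the lists matched no gene name. For glycolysis 29 names gave 9 genes, for neurons 13 gave 3 and for radial glia and astroglia 9 gave 3. For blood 8 names gave 4 genes and for skeletal muscle 19 gave 11, and these lists rest on the genes found. Alternatives were DESeq2, other scalings, other filters, a single fit over 10 libraries, the replicate number as a block, and leaving out each library.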

Additional observations from a re-analysis of the deposited data

How the results depend on the processing

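Among the results that answer a comparison, the counts of called genes of the set changed as follows. In the genotype comparison the count went from 0 to 1 (cox4i1l) with DESeq2, with total counts without TMM, without a filter on low counts, with at least 10 counts in every library and with the replicate block. It was 1 without WT replicate 1 or WT replicate 2 and 0 without either vehicle library, and 11 at an unadjusted p of 0.05. With valproate it was 7, and for MPH against valproate 2, at an unadjusted p of 0.05. Using the replicate number as a block, 22 of the 95 genes tested were called with MPH, all higher, beside 2689 of 19907 genes in all. Vehicle has no library with the number of MPH replicate 3, so that library did not bear on the fold changes of this fit. The calls rest on the libraries numbered 1 and 2, MPH replicate 1 among them. After the block, these few libraries leave very little from which to estimate the spread. Whether the numbers pair the libraries was not settled. Correlations were taken between deviations from the group means, over 17647 genes. Same-numbered libraries correlated at 0.07 for genotype, 0.11 and 0.05 for MPH and 0.09 and -0.02 for valproate. For MPH against valproate the values were 0.24, -0.26 and 0.21. Not every library correlated best with its own number. In a group of 2 libraries the deviations mirror each other, so a library's correlations with the 2 differ mainly in sign. The same-numbered values for genotype, MPH and valproate, -0.02 to 0.11, show little shared deviation. By themselves they do not settle whether the numbers pair libraries. For MPH against valproate no group has 2 libraries. There other-numbered libraries correlated at -0.44 to 0.32, a range that holds the same-numbered values.

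Leaving out each library, the median log2 fold change ranged from 0.013 to 0.31 for genotype, from -0.026 (without MPH replicate 1) to 0.39 for MPH, from -0.29 to 0.021 (without vehicle replicate 1) for valproate, and from 0.08 to 0.49 for MPH against valproate. With total counts without TMM the medians were 0.12, 0.14, -0.14 and 0.25, and those of all genes -0.06, -0.09, 0.01 and -0.10. Single genes changed sign when a library was left out: in the genotype comparison COX6A1 (0.27 without WT replicate 1, range -1.23 to 0.27) and COX4I1 (-0.11 without WT replicate 2, range -0.11 to 0.33), and for MPH against valproate atp5if1b (0.075 without MPH replicate 2 and 0.039 without valproate replicate 1, range -0.086 to 0.075). The causes were not tested.

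Counts over all genes depended on the method. The main edgeR fit used here stands first in brackets and DESeq2 second. The counts were 4 to 494 genes for genotype (38 and 279) and 1 to 2689 with MPH (43 and 496). They were 0 to 1073 with valproate (26 and 1073) and 0 to 41 for MPH against valproate (0 and 41). With 2 or 3 libraries a group, fold changes near the median SE of 0.16 to 0.26 could not be called. Genes of a few CPM rest on fewer counts, and the effect of depth was not tested.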
